A study of Homo sapiens with 9 samples.

Results

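Stress of the endoplasmic reticulum (ER) is sensed and passed on by 10 genes followed here through hypoxic PANC-1 cells exposed to rakicidin A, BE-43547A1 or solvent. They are the sensor genes EIF2AK3, ERN1, ATF6 and ATF6B, the protease genes MBTPS1 and MBTPS2, and the transcription factor genes XBP1, CREB3, CREB3L2 and CREB3L3. They were taken by symbol from the GENCODE entries of the count table, which gave 10 genes of 112171 annotated features. PANC-1 is a widely used cell line of human pancreatic carcinoma. The 3 groups of 3 total RNA libraries received rakicidin A at 42 nM, BE-43547A1 at 41 nM or DMSO at 0.04%, each during 12 h of hypoxia. Rakicidin A is a bacterial lipopeptide with a ring closed by an ester bond. The compounds were thus given at slightly unequal doses, and how much DMSO accompanied them is not stated in the labels. All 9 libraries came from hypoxic cells, so each comparison was made within hypoxia. Whether a group's libraries stem from independent cultures is not stated either, so the p-values reflect only how these libraries varied, possibly for technical reasons.

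The unfolded protein response is started by membrane proteins that detect misfolded protein in the ER lumen. PERK, encoded by EIF2AK3, is a kinase that phosphorylates the translation factor eIF2 alpha and so slows protein synthesis while it favours translation of ATF4. IRE1, encoded by ERN1, is a kinase and ribonuclease that cuts a short intron out of the XBP1 messenger RNA, and the spliced message encodes the active transcription factor. ATF6 and its relative ATF6B travel to the Golgi, where the site-1 protease (MBTPS1) and the site-2 protease (MBTPS2) cut them and free their transcription factor domains. CREB3, CREB3L2 and CREB3L3 are membrane-bound factors of the same kind, cut by the same proteases, and CREB3L3 is known mainly from liver and intestine. The exocrine pancreas makes much secreted protein and depends on this response.

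The XBP1 messenger RNA is shown around the intron that IRE1 removes, because the counts per gene add spliced and unspliced message together. Capitals mark the 26 bases between the cuts, each of which falls after the third base of a CNGCAGC motif. The stretch was read from the GENCODE v29 transcripts of XBP1, a gene on chromosome 22, where 4 of 7 annotated transcripts hold it and 2 have it removed.
XBP1 messenger RNA, 5′ to 3′: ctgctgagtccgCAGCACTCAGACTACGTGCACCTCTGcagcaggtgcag
Since 26 is not a multiple of 3, its removal shifts the reading frame. None of the XBP1 values that follow tells the forms apart, and the activity of the sensor proteins was not measured.

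The promoters of the genes were read from RefSeq (GRCh38.p14) as 250 bases before to 50 after each annotated start, and all 10 genes had an entry. They were searched on both strands for the ER stress response element ERSE (CCAAT and CCACG with any 9 bases between), ERSE-II (ATTGG and CCACG with any 1 base between), the unfolded protein response element UPRE (TGACGTGG) and the cyclic AMP response element CRE (TGACGTCA). ERSE stood in 1 window, that of XBP1, and CRE in 1, that of CREB3L2, with no overlap of motifs. Of 35116 promoter windows of this length, 0.0769% held ERSE, 0.0541% ERSE-II, 0.729% UPRE and 1.85% CRE. The XBP1 and CREB3L2 windows with a match are shown, with its fixed letters in capitals. A further window of each of these genes held no match. Both genes rose with either compound. The windows of EIF2AK3, ERN1, ATF6, CREB3, ATF6B, MBTPS1, MBTPS2 and CREB3L3 held no match. Of these genes EIF2AK3, ERN1, ATF6 and CREB3 rose with either compound and MBTPS2 fell. MBTPS1 was called changed with neither, ATF6B was called higher only after BE-43547A1, and CREB3L3 was too low to be tested. Whether the motifs bear on these changes was not tested.
XBP1 promoter, chr22:28800520-28800819, minus strand: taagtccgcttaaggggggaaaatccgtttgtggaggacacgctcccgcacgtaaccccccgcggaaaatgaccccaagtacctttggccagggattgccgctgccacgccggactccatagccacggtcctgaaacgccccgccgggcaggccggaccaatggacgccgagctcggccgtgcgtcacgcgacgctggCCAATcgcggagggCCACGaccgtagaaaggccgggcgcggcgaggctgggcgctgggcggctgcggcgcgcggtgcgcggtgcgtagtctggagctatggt
CREB3L2 promoter, chr7:138002037-138002336, minus strand: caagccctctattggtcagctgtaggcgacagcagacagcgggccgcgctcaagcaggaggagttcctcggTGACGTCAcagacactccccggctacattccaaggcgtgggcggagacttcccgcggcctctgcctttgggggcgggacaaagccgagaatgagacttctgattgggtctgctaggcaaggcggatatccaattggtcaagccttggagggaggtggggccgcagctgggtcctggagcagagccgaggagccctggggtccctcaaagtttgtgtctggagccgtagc
The ERSE match begins at position -52 relative to the XBP1 start, and the CRE match at -179 relative to the CREB3L2 start. A match describes the letters only and does not show a bound factor.

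The libraries held 26203326 to 34870860 counts on features after rakicidin A, 39807220 to 45048999 after BE-43547A1 and 27696394 to 30596594 in DMSO. DMSO replicate 3 stood apart from its group. Its counts differed from the other DMSO libraries by a chi-square of 17.6 and 19.3 per degree of freedom (1 is sampling noise), against 3.07 to 8.88 for the other pairs of replicates. The 5 markers chosen for PANC-1 and duct epithelium summed to 6650 to 6840, 8380 to 9060 and 7300 to 7630 CPM (normalised counts scaled to a common library size) after rakicidin A, after BE-43547A1 and in DMSO. Of the 5, VIM had 4240 to 5450 CPM and KRT8, KRT18 and KRT19 had 731 to 1350 CPM, while the duct keratin KRT7 had 4.67 to 6.87 CPM. Of 4 acinar markers, PRSS1, CPA1, CELA3A and AMY2A, each was at 0.043 CPM or less in every library. The 5 hepatocyte markers summed to at most 1.17 CPM. Higher sums were reached by 4 enterocyte markers (at most 6.52 CPM), 4 leukocyte markers (3.46 CPM) and 4 fibroblast markers (12.6 CPM). Of the enterocyte markers, VIL1 reached 5.85 CPM and CDX2 3.6 CPM.

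The first comparison asked how these genes stood after rakicidin A relative to DMSO. The messages of PERK, IRE1, XBP1 and CREB3L2 were 6.52 to 13.4 times as abundant, those of ATF6 and CREB3 2.59 and 2.87 times, and that of the site-2 protease fell to 0.564 of its DMSO level. Of 9 genes with enough counts to be tested, 6 rose and 1 fell, and ATF6B and MBTPS1 did not pass. A gene passed at an adjusted p below 0.05 in edgeR's quasi-likelihood test, as did 64.7% of the 22353 features tested, 31.9% higher and 32.7% lower. The median log2 fold change was 1.52 over the 9 genes and -0.023 over all features. The tested genes all came through a filter on low counts, and CREB3L3 did not.

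BE-43547A1 was next set against the same DMSO libraries. EIF2AK3, XBP1, CREB3L2 and ERN1 were 6.43 to 8.23 times as abundant, CREB3 2.30 times and ATF6 1.96 times, and MBTPS2 fell to 0.739 of its DMSO level. Of the 9 genes 7 rose, 1 fell and 1, MBTPS1, did not pass, where 70.4% of all features passed, 35.3% higher and 35.1% lower. The median log2 fold change was 1.20 over the 9 genes and -0.00026 over all features. The seventh rise, that of ATF6B, was small and was lost in several alternatives.

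**Figure D1:**
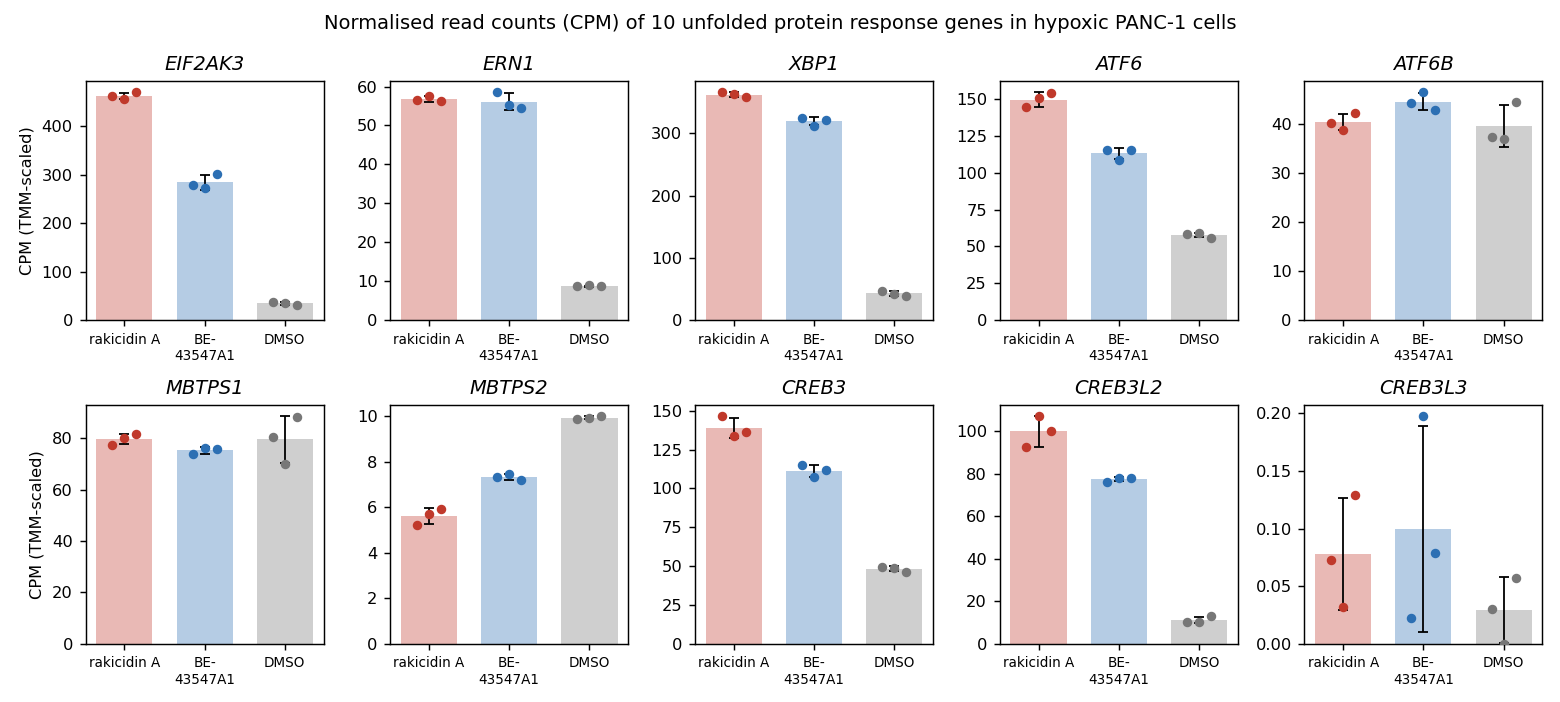
Normalised read count (CPM, scaled by TMM) of each of the 10 genes, with 1 point per library, bars at the mean and error bars of 1 SD (n = 3), for rakicidin A, BE-43547A1 and DMSO from left to right. EIF2AK3 stands at 457 to 469.5 CPM after rakicidin A, 273 to 301 after BE-43547A1 and 31.4 to 36.4 in DMSO, while ATF6B and MBTPS1 overlap between each compound and DMSO.

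Among the sensors, EIF2AK3 changed most. It had 461, 457 and 469.5 CPM after rakicidin A, 278, 273 and 301 CPM after BE-43547A1, and 36.4, 35.6 and 31.4 CPM in DMSO. The 3 groups did not overlap, and every rakicidin A library lay above every BE-43547A1 library. The log2 fold change over DMSO was 3.75 ± 0.068 for rakicidin A (± SE, adjusted p = 2.14e-18) and 3.04 ± 0.067 for BE-43547A1 (adjusted p = 2.46e-17). After rakicidin A 0.886% of all features tested had a larger fold change, and after BE-43547A1 3.13% had. In bulk RNA a higher level in each cell and a larger share of cells with the message cannot be told apart. In GENCODE v29 the exons of EIF2AK3 share bases with 2 genes on the other strand, AC062029.1 and AC104134.1, and the strand setting of the counting is not given in the sources used here.

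ERN1 had 56.6, 57.7 and 56.2 CPM after rakicidin A, 58.5, 55.3 and 54.4 CPM after BE-43547A1, and 8.62, 8.88 and 8.67 CPM in DMSO. The treated groups overlapped each other and lay far above DMSO. The log2 fold change was 2.70 ± 0.066 for rakicidin A (adjusted p = 8.71e-17) and 2.68 ± 0.065 for BE-43547A1 (adjusted p = 1.02e-16). Its paralog ERN2, a form of IRE1 known from gut epithelium, was too low to be tested, with means of 0.014, 0.042 and 0.021 CPM after rakicidin A, after BE-43547A1 and in DMSO.

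ATF6 had 144, 150.5 and 154 CPM after rakicidin A, 115.5, 109 and 115 CPM after BE-43547A1, and 58.6, 58.8 and 55.8 CPM in DMSO. The 3 groups did not overlap. The rise was 1.37 ± 0.055 on the log2 scale for rakicidin A (adjusted p = 1.06e-13) and 0.97 ± 0.055 for BE-43547A1 (adjusted p = 1.68e-11).

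ATF6B, which encodes the second ATF6 protein, had 40.1, 38.8 and 42.2 CPM after rakicidin A, 44.2, 46.4 and 42.9 CPM after BE-43547A1, and 37.3, 36.9 and 44.4 CPM in DMSO. DMSO replicate 3 was the high DMSO library, and the DMSO range overlapped both treated groups. The log2 fold change was 0.029 ± 0.073 for rakicidin A, with a 95% interval from -0.13 to 0.18 (adjusted p = 0.747). It was 0.17 ± 0.072 for BE-43547A1 (adjusted p = 0.0417), a call lost without BE-43547A1 replicate 1 (0.19, adjusted p = 0.0515) or 2 (0.155, 0.110), or DMSO replicate 1 (0.12, 0.173) or 2 (0.12, 0.195). The call was also lost with the 6 libraries of the comparison alone (0.176, adjusted p = 0.0586). Without DMSO replicate 3 the log2 fold change was 0.255 (adjusted p = 0.000796). With library sizes set by total counts alone it fell by 0.33 after rakicidin A (adjusted p = 0.000697) and stood at -0.067 after BE-43547A1 (adjusted p = 0.413). Its exons share bases with TNXB and AL662884.2 on the same strand. TNXB had 5 to 47 counts per library, against 983 to 1966 for ATF6B.

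Neither protease that cuts ATF6 was called higher. MBTPS1 had 77.4, 79.9 and 81.5 CPM after rakicidin A, 73.7, 76.2 and 75.8 CPM after BE-43547A1, and 80.5, 69.99 and 88.1 CPM in DMSO. The DMSO libraries spanned both treated groups, with replicate 2 lowest and replicate 3 highest. Its log2 fold change was 0.0010 for rakicidin A, with a 95% interval from -0.14 to 0.15 (adjusted p = 0.991), and -0.080 for BE-43547A1, from -0.22 to 0.063 (adjusted p = 0.304). Without DMSO replicate 2 it was lower after BE-43547A1 (-0.17, adjusted p = 0.0235). With total counts alone it fell by 0.36 after rakicidin A (adjusted p = 0.000161) and by 0.32 after BE-43547A1 (adjusted p = 0.000429).

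MBTPS2 was the 1 gene of the set that fell, and it is X-linked and weakly expressed. It had 5.2, 5.69 and 5.93 CPM after rakicidin A, 7.33, 7.46 and 7.22 CPM after BE-43547A1, and 9.87, 9.92 and 10.0 CPM in DMSO. These rest on 138 to 178 counts per library after rakicidin A, 276 to 326 after BE-43547A1 and 314 to 352 in DMSO. The groups did not overlap, and BE-43547A1 lay between the others. The log2 fold change was -0.83 ± 0.095 for rakicidin A (adjusted p = 3.87e-07) and -0.44 ± 0.088 for BE-43547A1 (adjusted p = 0.000238). Its exons share bases with YY2, a gene nested in it, which had 4 to 28 counts per library.

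XBP1 had 366, 363 and 359 CPM after rakicidin A, 325, 312 and 322 CPM after BE-43547A1, and 46.4, 42.3 and 39.3 CPM in DMSO. The groups did not overlap, and the coefficient of variation was 0.958% after rakicidin A, 2.05% after BE-43547A1 and 8.33% in DMSO. Relative to DMSO, BE-43547A1 gave a log2 fold change of 2.91 ± 0.063 (adjusted p = 2.46e-17) and rakicidin A one of 3.09 ± 0.064 (adjusted p = 1.15e-17). The pseudogene XBP1P1 took 1 to 11 counts per library, against 1338 to 14447 for XBP1.

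CREB3 encodes a factor also called Luman, which is known for its part in stress of the Golgi. It had 147, 134 and 136 CPM after rakicidin A, 115, 107.5 and 112 CPM after BE-43547A1, and 49.7, 49.1 and 46.4 CPM in DMSO. The groups did not overlap, and the log2 fold change was 1.52 ± 0.058 for rakicidin A (adjusted p = 4.90e-14) and 1.20 ± 0.058 for BE-43547A1 (adjusted p = 1.51e-12). Its exons share bases with GBA2 and TLN1 on the other strand. Per library GBA2 had 1748 to 3396 counts and TLN1 8336 to 21001, against 1553 to 5107 for CREB3. Without strand, reads on the shared bases cannot be assigned to CREB3 or to those genes. GBA2 had log2 fold changes of 0.57 with rakicidin A and 0.32 with BE-43547A1, and TLN1 of 0.69 and 0.74. Whether the shared bases affected the CREB3 counts was not tested.

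CREB3L2, known in mouse cartilage for raising the secretory capacity of matrix-making cells, rose more than CREB3 on the log2 scale, a difference that was not tested. It had 92.8, 107 and 99.96 CPM after rakicidin A, 76.2, 78.1 and 78.1 CPM after BE-43547A1, and 10.2, 10.1 and 12.9 CPM in DMSO. The groups did not overlap, and DMSO replicate 3 was again the high DMSO library. The log2 fold change was 3.17 ± 0.084 for rakicidin A (adjusted p = 2.91e-16) and 2.80 ± 0.083 for BE-43547A1 (adjusted p = 1.66e-15). Without DMSO replicate 3 it was 3.29 and 2.92.

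CREB3L3 was almost absent. It had 2, 1 and 3 counts after rakicidin A, 1, 8 and 3 counts after BE-43547A1, and 1, 0 and 2 counts in DMSO. With library sizes taken into account, the ratio to DMSO was 2.43 for rakicidin A, with a 95% interval from 0.518 to 15, and 3.23 for BE-43547A1, from 0.872 to 17.9. These exact intervals cover counting error only, and a difference was not detectable at this depth.

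**Figure D2:**
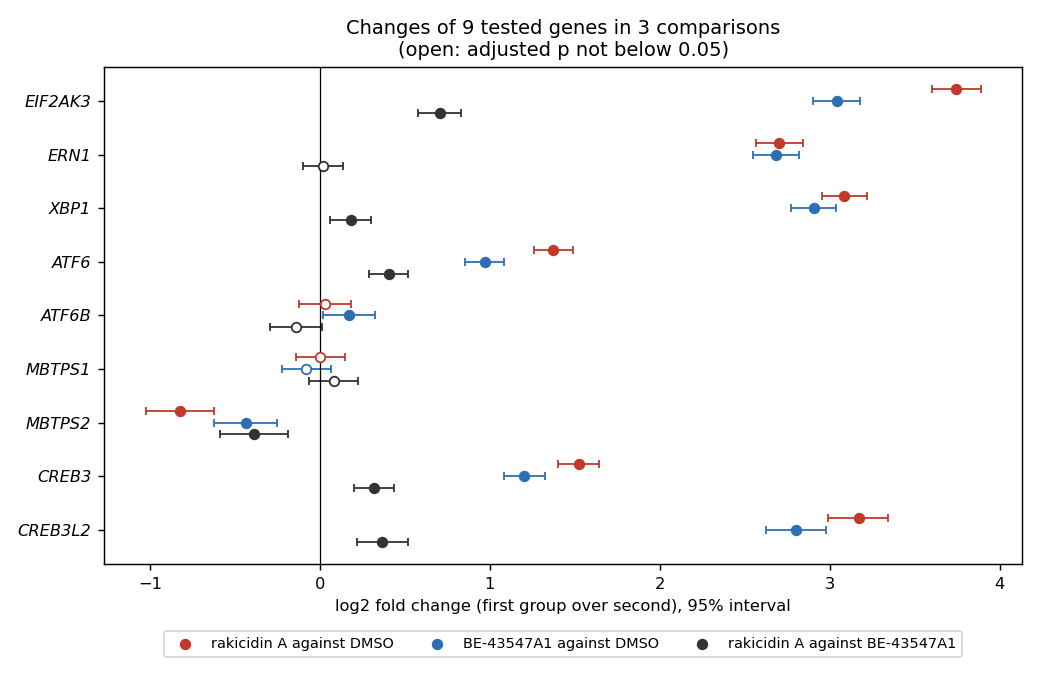
Log2 fold change of the 9 tested genes with its 95% interval, for rakicidin A over DMSO (red), BE-43547A1 over DMSO (blue) and rakicidin A over BE-43547A1 (black). Filled points have an adjusted p below 0.05. EIF2AK3 shows the widest gap between the compounds (0.71), and ERN1 lies at 0.019.

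The third comparison set rakicidin A (42 nM) against BE-43547A1 (41 nM) directly. Most genes that rose with either compound were higher after rakicidin A, by up to 1.63 times. Of 9 tested genes 5 were higher and 1 was lower, and 3 did not pass, where 46.6% of all features passed, 24.1% higher and 22.5% lower. EIF2AK3 was 1.63 times as abundant (1.49 to 1.78 at 95%, log2 0.71 ± 0.060, adjusted p = 3.50e-08). ATF6 followed at 1.32 times (1.22 to 1.43, adjusted p = 6.49e-06), CREB3L2 at 1.29 times (1.16 to 1.43, adjusted p = 0.000393) and CREB3 at 1.25 times (1.15 to 1.35, adjusted p = 0.000128). MBTPS2 was lower after rakicidin A, at 0.763 of its BE-43547A1 level (0.664 to 0.878, adjusted p = 0.00262).

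XBP1 was 1.13 times as abundant after rakicidin A as after BE-43547A1 (log2 0.18 ± 0.058, adjusted p = 0.0158). The call was lost without BE-43547A1 replicate 2 (0.165, adjusted p = 0.0661), without a filter on low counts (0.16, 0.0722) and with total counts alone (0.060, 0.403). ERN1 did not pass, with a log2 difference of 0.019 and a 95% interval from -0.099 to 0.14, which leaves room for a ratio of 0.933 to 1.10. ATF6B did not pass (-0.14, from -0.29 to 0.011), although its groups did not overlap, and it passed without DMSO replicate 3 (-0.13, adjusted p = 0.0451), with the 6 libraries of the comparison alone (-0.15, 0.0289) and with total counts alone (-0.26, 0.00681). MBTPS1 did not pass either (0.081, from -0.063 to 0.22), and its groups did not overlap either.

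Counts per length place the genes on 1 scale. Levels as TPM (counts divided by length and scaled to the same total in each library) were computed with the exon lengths of GENCODE v29. In DMSO, CREB3 stood highest (104 ± 2.63 TPM, mean ± SD, n = 3), followed by XBP1 (57.7 ± 4.43 TPM) and ATF6B (44.7 ± 6.34 TPM). MBTPS1 (31.9 ± 4.76 TPM) and ATF6 (30 ± 0.514 TPM) overlapped, and EIF2AK3 came next at 26.0 ± 1.47 TPM, with its highest library inside the range of MBTPS1. CREB3L2 (5.19 ± 0.902 TPM) and MBTPS2 (4.56 ± 0.185 TPM) overlapped, and ERN1 (3.29 ± 0.0856 TPM) was the lowest apart from CREB3L3 (0.046 TPM).

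After rakicidin A the order was XBP1 (410 ± 9.8 TPM), EIF2AK3 (291 ± 4.67 TPM) and CREB3 (250 ± 8.81 TPM), so that the PERK message stood second of the 10 where it had been sixth in DMSO. ATF6 (65.0 ± 2.84 TPM) came next, and CREB3L2 (39.0 ± 3.62 TPM) overlapped ATF6B (38.1 ± 1.18 TPM). MBTPS1 (26.6 ± 1.01 TPM), ERN1 (17.9 ± 0.638 TPM) and MBTPS2 (2.15 ± 0.161 TPM) followed, and CREB3L3 (0.099 TPM) was last. After BE-43547A1, XBP1 (374 ± 16.3 TPM), CREB3 (207 ± 12.0 TPM) and EIF2AK3 (185 ± 8.40 TPM) led, and ERN1 stood at 18.3 ± 1.23 TPM. The IRE1 message was below that of its substrate XBP1 in all 3 groups. Several places depend on the length used. With the longest transcript of each gene, MBTPS1 stood at 48.8, 47.8 and 58.6 TPM after rakicidin A, after BE-43547A1 and in DMSO, and CREB3 and EIF2AK3 both stood at 168 TPM after BE-43547A1. That length also put ATF6B above CREB3L2 after rakicidin A, ATF6B above ATF6 after BE-43547A1 and MBTPS2 above CREB3L2 in DMSO.

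**Figure D3:**
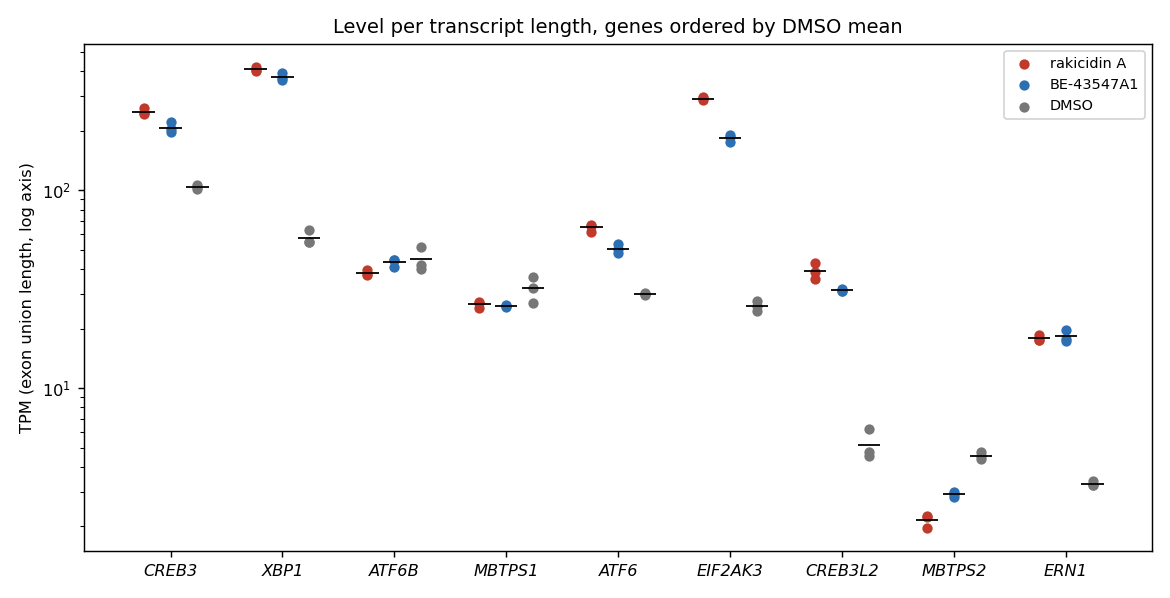
Level per transcript length (TPM, log axis) of 9 genes, ordered by their DMSO mean, with 1 point per library and a line at the mean, for rakicidin A (red), BE-43547A1 (blue) and DMSO (grey). EIF2AK3 moves from the middle of the DMSO order to second place after rakicidin A, and MBTPS2 is below its DMSO level with either compound.

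Genes that act beside or downstream of these 10 were then counted from 6 lists. The lists were drawn from general knowledge but chosen with earlier results of these data known, so their counts are descriptive only. Their counts stand beside 31.9% of all features higher and 32.7% lower after rakicidin A, and 35.3% higher and 35.1% lower after BE-43547A1, with medians near 0 (-0.023 and -0.00026). In the direct comparison 24.1% of all features were higher after rakicidin A and 22.5% lower. With total counts alone 4477 of 22353 features were higher and 11392 lower after rakicidin A. After BE-43547A1 that setting gave 5951 higher and 10450 lower. In the list of the PERK branch and eIF2 alpha, 11 of 14 genes rose and 2 fell after rakicidin A (median log2 2.24). After BE-43547A1 10 rose and 3 fell (median 1.87). With total counts alone 11 rose and 3 fell after rakicidin A, and 9 rose and 4 fell after BE-43547A1. NCK1 was higher after rakicidin A (log2 0.73) and lower after BE-43547A1 (-0.19). DDIT3, which encodes the factor CHOP, had 399 ± 14 CPM after rakicidin A, 364 ± 21.7 CPM after BE-43547A1 and 17.0 ± 1.36 CPM in DMSO. ATF4, whose translation PERK favours, rose by a log2 of 2.33 ± 0.052 after rakicidin A and 1.96 ± 0.052 after BE-43547A1. PPP1R15A, a phosphatase subunit that reverses eIF2 alpha phosphorylation, rose by 3.68 after rakicidin A and 3.61 after BE-43547A1, and the stress gene SESN2 by 3.99 and 3.81. None of the other eIF2 alpha kinases in the list was called higher. The log2 fold change of EIF2AK2 was -0.73 and -0.56 and that of EIF2AK4 -0.44 and -0.43 after rakicidin A and BE-43547A1, all past the threshold, and EIF2AK1 did not pass (0.15 and 0.0095, adjusted p = 0.0730 and 0.912). With total counts alone EIF2AK1 was lower with both (-0.21 and -0.23).

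The list of ATF6 targets rose in full with both compounds, 12 of 12 genes each (median log2 2.84 after rakicidin A and 2.21 after BE-43547A1). HERPUD1, part of the machinery that degrades ER proteins, had 835 ± 24.6 CPM after rakicidin A, 592 ± 22.6 CPM after BE-43547A1 and 17.5 ± 1.29 CPM in DMSO. The chaperone HSP90B1 rose by 2.86 and 2.41, MANF by 4.02 and 3.48, and SDF2L1 by 3.34 and 2.81 with rakicidin A and BE-43547A1. Between the compounds 11 of the 12 were higher after rakicidin A and HSPA5, the chaperone BiP, did not pass (0.045, adjusted p = 0.795).

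Targets of spliced XBP1 rose in 12 of 12 cases after rakicidin A (median 1.63), and in 11 after BE-43547A1 (median 0.918), where SPCS3 of the signal peptidase fell (-0.21, adjusted p = 0.00957). With total counts alone SPCS3 no longer passed after rakicidin A (0.069, adjusted p = 0.347). DNAJB9, a cochaperone of BiP, had 674 ± 18.9 CPM after rakicidin A, 373 ± 36.9 CPM after BE-43547A1 and 26.9 ± 2.11 CPM in DMSO. DNAJC3, an inhibitor of PERK, rose by 2.82 and 2.01 with rakicidin A and BE-43547A1, SEC24D of the COPII coat by 2.48 and 1.62 and the chaperone HYOU1 by 2.48 and 1.85. Directly compared, 11 of these 12 genes were higher after rakicidin A than after BE-43547A1 and 1 did not pass.

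The list of IRE1 partners and XBP1 splicing was mixed. After rakicidin A 7 of 10 tested genes rose and 3 fell (median 0.26), and after BE-43547A1 5 rose and 3 fell (median 0.165). With total counts alone 4 rose and 5 fell after rakicidin A, beside 4477 higher and 11392 lower of all 22353 features. After BE-43547A1 3 rose and 5 fell under that setting, beside 5951 and 10450 of all features. SYVN1, an ER ubiquitin ligase, had 79.5 ± 2.74 CPM after rakicidin A, 46.7 ± 2.62 CPM after BE-43547A1 and 10.6 ± 1.42 CPM in DMSO. SEC61A1 of the translocon rose by 1.58 and 1.06 and SEC63 by 0.97 and 0.65 with rakicidin A and BE-43547A1. MAP3K5, which encodes the kinase ASK1 that acts below IRE1, fell by 1.23 and 1.10. The ligase RTCB, which joins the XBP1 exons, passed after rakicidin A (0.198, adjusted p = 0.00750) but was lower there with total counts alone (-0.16), and did not pass after BE-43547A1 (0.046, adjusted p = 0.502).

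A list of 11 genes around the site-1 and site-2 proteases was not confined to substrates and escorts, since it also held INSIG1, INSIG2, CREBZF and HCFC1. Of all 11 genes 3 rose, 2 fell and 6 did not pass after rakicidin A (median log2 0.035). After BE-43547A1 4 rose, 3 fell and 4 did not pass (median 0.094). With total counts alone 1 rose and 8 fell after rakicidin A, beside 4477 higher and 11392 lower of all 22353 features. After BE-43547A1 3 rose and 5 fell under that setting, beside 5951 and 10450 of all features. SREBF2, which encodes the precursor of a sterol-regulated factor, had 70.5 ± 1.71 CPM after rakicidin A, 91.6 ± 5.17 CPM after BE-43547A1 and 41.8 ± 3.67 CPM in DMSO. INSIG1, which holds that precursor in the ER, fell after rakicidin A and rose after BE-43547A1, with 69.3 ± 4.09 CPM after rakicidin A, 162 ± 1.56 CPM after BE-43547A1 and 83.8 ± 5.08 CPM in DMSO. Its log2 difference between rakicidin A and BE-43547A1 was -1.22 ± 0.060 (adjusted p = 7.46e-11). GNPTAB, cut by the site-1 protease, was lower with rakicidin A and BE-43547A1 (-0.38 and -0.30). CREBZF, an inhibitor of CREB3 family factors, was 0.155 after rakicidin A, which turned to -0.20 with total counts alone, and -0.35 after BE-43547A1.

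The list of CREB3 family targets held 8 genes, 1 of which, CREBRF, is a regulator that promotes the loss of CREB3 protein and not a target. Of the other 7, 6 rose and 1 did not pass after rakicidin A (median log2 1.28), and 6 rose and 1 fell after BE-43547A1 (median 0.584). With CREBRF the median was 1.6 after rakicidin A and 0.900 after BE-43547A1, and 7 of 8 genes rose with either compound. KDELR2, which like KDELR3 returns chaperones to the ER, rose after BE-43547A1 (0.15, adjusted p = 0.0250) but not with total counts alone (-0.088, adjusted p = 0.159). KDELR3 did not pass after rakicidin A (0.25, adjusted p = 0.0822, and -0.11 with total counts alone) and fell after BE-43547A1 (-0.34, adjusted p = 0.0194). ARF4, a GTPase of the Golgi, had 443 ± 12.6 CPM after rakicidin A, 271 ± 16.3 CPM after BE-43547A1 and 117 ± 4.97 CPM in DMSO. CREBRF had 148.5 ± 13.2 CPM after rakicidin A, 235 ± 1.98 CPM after BE-43547A1 and 14.7 ± 0.630 CPM in DMSO, and was lower after rakicidin A than after BE-43547A1 (-0.66 ± 0.062, adjusted p = 9.14e-08). HERPUD1, HYOU1, SEC24D, SEC61A1 and DNAJC3 each stand in more than 1 list.

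**Figure D4:**
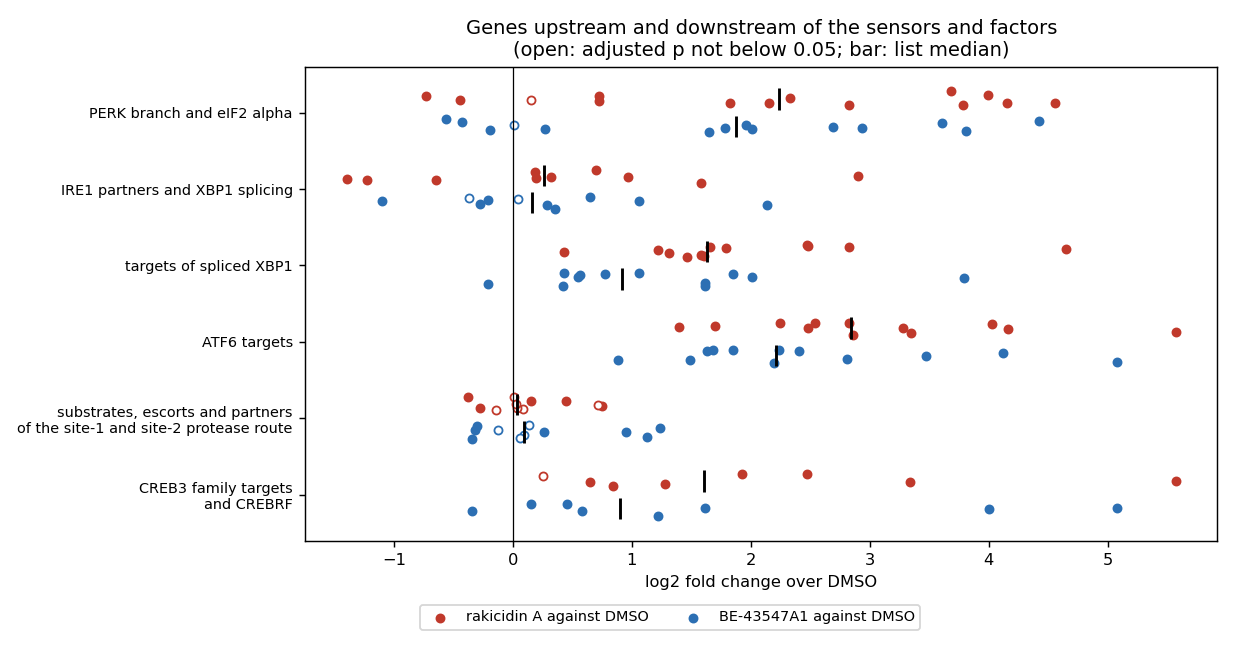
Log2 fold change over DMSO of each gene of 6 pathway lists, with 1 point per gene for rakicidin A (red) and BE-43547A1 (blue) and a black bar at the list median. Open points have an adjusted p of 0.05 or more. All 12 ATF6 targets lie above 0 with either compound, and of the 11 genes around the proteases 6 are open after rakicidin A and 4 after BE-43547A1.

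The genes whose profile over the 9 libraries lay nearest to a sensor or to XBP1 were picked by the Euclidean distance of log2 CPM centred on each gene, among 12568 GENCODE genes with a mean of at least 2 CPM. Nearest to EIF2AK3 were CHAC1, which breaks down glutathione (distance 0.455), RP11-325K4.3 (0.497) and the survival gene BCL2A1 (0.514). ERN1 was closest to LAMB3 (0.208), DUSP1 (0.221) and OSER1 (0.243), and ATF6 to CREB1 (0.0815), ETF1 (0.0891) and RIOK3 (0.105). XBP1 was closest to SYNE1 (0.295), GCH1 (0.329) and BCL10 (0.391). CHAC1 also stood in the PERK list, and no other of these 12 genes was in a list.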

How the data were processed

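Total RNA of hypoxic PANC-1 cells was sequenced in 9 libraries with paired-end reads of 76 bases, per the labels. The deposited table gives raw counts per annotated feature and library, made with TopHat2 and HTSeq on GRCh37/hg19, per the submitters' processing notes. No source used here gives the strand setting or annotation version. The 5 summary entries were set aside. Relative to all counts, reads on no feature made up 16.4 to 20.8%, ambiguous reads 2.65 to 2.94%, and reads at several sites 19.1 to 22.4%.

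The analysis ran in edgeR 4.0.16 (R 4.3.3). Features were filtered with filterByExpr, scaled by TMM and fitted by quasi-likelihood with 3 group means over 9 libraries (6 residual degrees of freedom), with Benjamini-Hochberg adjustment over all features. CPM is TMM-scaled, and its log2 form adds a prior of 2 counts. Each standard error was derived from the fold change and its F statistic. TPM used exon lengths of GENCODE v29, matched by identifier for 52338 of 57820 features. The pipeline was tested on simulated data. Named genes were the 10, up to 4 per list ranked by the unadjusted p-values for either compound over DMSO, multiplied together, and the 3 nearest profiles of 4 genes. Some further genes were named after their values were seen, where few went against a list or for their role. The genes and lists were chosen with earlier results of these data known. Alternatives were RLE size factors, total counts, no filter, DESeq2 1.42.0, limma-voom (limma 3.58.1), the 6 libraries of a comparison, a replicate block and each library left out. Counting the pathway lists under them, and the CREB3 list without CREBRF, was added after seeing the data. Figures were drawn with matplotlib 3.10.9.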

Additional observations from a re-analysis of the deposited data

How the results depend on the processing

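Each of the 27 values (9 genes, 3 comparisons) was recomputed under 16 alternatives. Of these 432 values 409 kept their direction and side of the threshold, 13 kept their direction and changed side, and 10 changed sign. Values that changed side of the threshold were those of ATF6B in all 3 comparisons, of MBTPS1 against DMSO and of XBP1 between the compounds. With total counts alone, ATF6B turned to -0.33 and MBTPS1 to -0.36 after rakicidin A, and ATF6B to -0.067 after BE-43547A1. Of the 10 sign changes the other 7 passed in neither fit. Between the compounds ERN1 turned to -0.10 and MBTPS1 to -0.039 with total counts alone, and ERN1 to -0.0049 without a filter on low counts, where MBTPS1 after rakicidin A turned to -0.0075. With 1 library left out at a time, the values after rakicidin A ran from -0.016 to 0.12 for ATF6B and from -0.080 to 0.081 for MBTPS1, below 0 without DMSO replicate 2 for both and without DMSO replicate 1 for ATF6B. Total counts alone moved the median of all features to -0.38, -0.24 and -0.14 in the 3 comparisons, against -0.023, -0.00026 and -0.022 with TMM. They gave 4477 higher and 11392 lower features after rakicidin A (TMM 7141 and 7314), 5951 and 10450 after BE-43547A1 (7898 and 7840), and 3923 and 6868 between the compounds (5387 and 5036).

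The count of the 9 genes that passed was 7 to 9 after rakicidin A, 7 to 8 after BE-43547A1 and 5 to 7 between the compounds over the alternatives. Of all features 64.7, 70.4 and 46.6% passed in the main fit. All 9 genes passed after rakicidin A with total counts alone, where 15869 of all 22353 features passed. With the replicate number as a block, 14359, 15670 and 10347 of 22353 features and 7, 8 and 6 of the 9 genes passed. Deviations from the group mean had correlations of -0.057 to 0.122 between same-numbered libraries and -0.097 to 0.0925 between other libraries of different groups. The highest, 0.122, was that of BE-43547A1 replicate 1 and DMSO replicate 1. As the ranges largely overlapped, the numbers were not used as pairs. With the longest transcript in place of all exons, the median level of the 9 genes in DMSO was 24.5 TPM against 30. Depth limits CREB3L3 and ERN2, which were too low to be tested.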
